A study of Mus musculus with 48 samples.

Results

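Oligodendrocyte precursor and lineage genes were examined in the hippocampus (HPC) of mice during withdrawal from chronic intermittent ethanol (CIE). The 7 genes, Gpr17, Pdgfra, Cspg4, Olig1, Olig2, Sox10 and Bcas1, were taken by gene symbol from 18193 genes measured on Affymetrix mouse genome arrays, with the probe set of highest mean standing for each gene. CIE mice inhaled ethanol vapor (10 to 13 mg/l of air, 16 h a day for 4 days, then 7 days of abstinence) over 4 cycles and were given ethanol (1.6 g/kg) with pyrazole (1 mmol/kg), a blocker of alcohol dehydrogenase. Control (Ctrl) mice breathed air and were given saline with pyrazole, so every mouse had received pyrazole. The 48 animals, all C57BL/6J males, gave 1 array each. Separate sets of 6 CIE and 6 Ctrl mice were killed straight after the final vapor session (0 h) and 8 h, 72 h and 7 d later. Values are log2 expression, and a difference was called at an adjusted p (false discovery rate, FDR) of 0.01 or less in a limma fit of all arrays.

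Oligodendrocytes form the myelin of the central nervous system and arise from precursor cells that persist and divide throughout adult life. Olig2 and Olig1, basic helix-loop-helix factors, and Sox10, an HMG-box factor, specify the lineage and stay on as it matures. Dividing precursors carry Pdgfra, the receptor for the mitogen PDGF-AA, and Cspg4, the NG2 proteoglycan. Gpr17, a G protein-coupled receptor, appears for a limited time in precursors that are leaving the cell cycle and has to be switched off before myelination, and Bcas1 marks the newly formed, early myelinating cells that follow. In bulk tissue, fewer cells of a type and less RNA per cell cannot be told apart.

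Tissue identity was checked on marker genes, of which Rbfox3 and Snap25 mark neurons in general. Rbfox3 and Snap25 stood at the 99.0 and 99.7 percentiles of all probe sets, Neurod6 of pyramidal neurons at 94.1 and Prox1 of dentate granule cells at 78.6. The choroid plexus gene Ttr was also high (percentile 91.5). The thalamic gene Shox2 and the choroid plexus gene Otx2 were low (percentiles 16.9 and 9.65). In Ctrl mice at 0 h, however, they were 5.54 ± 1.63 and 4.92 ± 1.34 (SD, n = 6 each). In CIE mice at 0 h they were 4.11 ± 0.17 and 3.71 ± 0.13, and both genes were called lower in CIE mice then. The Ctrl mice of 0 h are the reference for the later Ctrl times, and the part of neighbouring tissue was not tested. Arrays correlated with each other at 0.974 to 0.998. By the values they shared, 47 arrays could be sorted into 6 sets, called hybridization sets below although the labels give no batch. The array of Ctrl mouse 2, killed at 0 h, fell in none of them, so values that move without it are given with and without it. Fits that took the sets as a block left this array out.

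Promoter sequence was available from RefSeq (GRCm38.p6) for 3 of the 7 genes, Pdgfra, Cspg4 and Olig2. Those of Pdgfra and Olig2 are shown because the expression of this pair went together closely from mouse to mouse, as described below. Each runs 5′ to 3′ from 250 bases before to 50 bases after the annotated start on the + strand, at chr5:75152001-75152300 for Pdgfra and chr16:91225300-91225599 for Olig2. The Pdgfra window lies at a start 929 bases downstream of the first base of the RefSeq gene, while the Olig2 start is the first base of its gene. Capitals mark matches to the E-box CANNTG, the kind of site that basic helix-loop-helix factors such as Olig2 bind, searched on both strands.
Pdgfra: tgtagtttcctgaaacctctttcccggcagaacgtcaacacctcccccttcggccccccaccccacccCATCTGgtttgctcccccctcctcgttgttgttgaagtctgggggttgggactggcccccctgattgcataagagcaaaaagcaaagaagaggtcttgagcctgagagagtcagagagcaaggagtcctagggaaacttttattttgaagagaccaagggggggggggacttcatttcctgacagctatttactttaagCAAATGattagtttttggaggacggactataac
Olig2: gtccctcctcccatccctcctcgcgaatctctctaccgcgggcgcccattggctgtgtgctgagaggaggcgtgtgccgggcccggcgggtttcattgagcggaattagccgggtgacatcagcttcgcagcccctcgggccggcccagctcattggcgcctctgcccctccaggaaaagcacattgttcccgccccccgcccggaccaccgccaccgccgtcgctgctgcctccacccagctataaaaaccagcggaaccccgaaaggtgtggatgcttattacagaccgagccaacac
The Pdgfra window held 2 E-boxes and the Olig2 and Cspg4 windows held 0. An E-box occurred in 72.3% of 32851 promoters of this length, so most promoters held one. The SOX-type hexamer ACAAAG, also searched on both strands, occurred in none of the 3 windows and in 18.7% of all promoters. The G and C content was 51% for Pdgfra, 60% for Cspg4 and 65% for Olig2. These letters describe the windows only and were not tied to binding.

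Gpr17 was the one gene of the 7 whose expression differed between CIE and Ctrl mice over the time course. A moderated F test over the CIE effects at the 4 times gave F = 8.73 (adjusted p = 0.000966), placing Gpr17 at position 421 of 18193 genes. Of all genes, 6.23% passed this test. The adjusted p of the other 6 genes lay between 0.239 for Pdgfra and 0.959 for Olig2. The F of Gpr17 was 8.58 (adjusted p = 0.00123) without Ctrl mouse 2 and 7.98 (adjusted p = 0.0035) with the hybridization sets as a block. Gpr17 had no further probe set, so none of its results could be compared with those of another.

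At 0 h, Gpr17 ranged over 8.12 to 8.70 in CIE mice (median 8.49) and over 8.02 to 8.68 in Ctrl mice (median 8.17). The ranges overlapped almost completely, though 24 of 36 pairs of mice were higher in CIE. The difference was 0.20 (SE 0.10, 95% interval 0.002 to 0.40, adjusted p = 0.249; 0.15 without Ctrl mouse 2, adjusted p = 0.483). At 8 h Gpr17 lay between 8.21 and 8.60 in CIE mice (median 8.45) and between 8.66 and 8.99 in Ctrl mice (median 8.76). Every CIE mouse was below every Ctrl mouse, and 0 of 36 pairs of mice had the higher value in CIE. How many of all genes separated so fully was not counted, here or in the later comparisons. The log2 difference of −0.34 (SE 0.10, 95% interval −0.54 to −0.14, a fold of 0.789) had an adjusted p of 0.0316, short of the threshold. At 8 h, 2.29% of genes were called in either direction, and 2.25% were lower in CIE mice at an FDR of 0.05, and Gpr17 stood at position 765. The thalamic marker Synpo2 was higher in CIE mice at 8 h (0.66, adjusted p = 0.000906), with a median of 0.08 over 8 thalamic markers, and their part in the Gpr17 difference was not tested.

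The largest mean difference of Gpr17 between treatments was at 72 h, a time at which hardly any gene was called (0.0055% of genes). Values were 8.52 to 8.84 in CIE mice (median 8.63) and 8.79 to 9.28 in Ctrl mice (median 9.13). Only the highest CIE mouse reached the lowest Ctrl mouse, in 1 of 36 pairs. The difference was −0.43 (SE 0.10, 95% interval −0.63 to −0.23, a fold of 0.743), with an adjusted p of 0.0601 and position 26 among genes. Within each of the 6 inferred sets the CIE mouse was lower than the Ctrl mouse of the same time. These differences were −0.70 to −0.08 at 72 h and −0.59 to −0.18 at 8 h, and the mice were not paired by design. With arrays weighted by quality, both differences passed the threshold, at −0.31 (adjusted p = 0.00861) for 8 h and −0.46 (adjusted p = 0.00237) for 72 h. With the sets as a block neither did (adjusted p = 0.0459 and 0.122).

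At 7 d Gpr17 showed no difference beyond the spread between mice. It was 9.10 ± 0.20 in CIE and 9.12 ± 0.11 in Ctrl mice (SD, n = 6 each), a difference of −0.02 (95% interval −0.22 to 0.18, adjusted p = 0.935). Averaged over the 4 times, the CIE effect on Gpr17 was −0.15 (SE 0.05, adjusted p = 0.0299), not called, where 7.9% of genes were. Without Ctrl mouse 2 it was −0.16 (adjusted p = 0.0171).

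**Figure D1:**
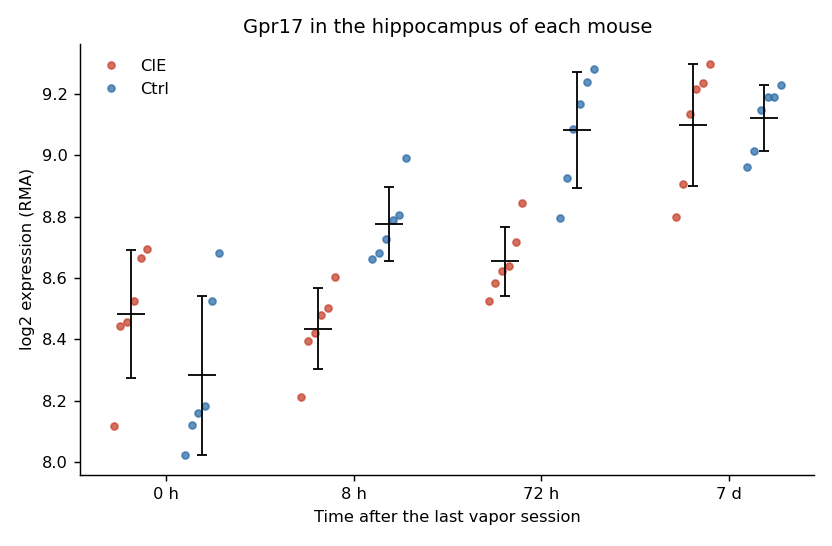
Log2 expression of Gpr17 (vertical axis) in each mouse (points) by time after the last vapor session (horizontal axis), CIE in red and Ctrl in blue, with black lines for group means ± SD of 6 mice. The groups do not overlap at 8 h, overlap in 1 of 36 pairs at 72 h, and coincide at 7 d near 9.10 and 9.12.

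Gpr17 differed in sign between 0 h and the next 2 times, and whether the CIE effect itself changed was tested directly. The Gpr17 effect at 72 h minus that at 0 h was −0.63 (SE 0.14, adjusted p = 0.0311) and at 8 h minus that at 0 h −0.54 (SE 0.14, adjusted p = 0.066; −0.49 without Ctrl mouse 2, adjusted p = 0.127). Neither was called, at positions 37 and 120 among genes. Without Ctrl mouse 38, the Ctrl mouse with the highest Gpr17 at 0 h, the 72 h value was −0.71 and passed (adjusted p = 0.00689), and without Ctrl mouse 2 it was −0.58 (adjusted p = 0.0589). The 7 d effect exceeded that at 8 h by 0.32 (adjusted p = 0.368) and that at 72 h by 0.40 (adjusted p = 0.367). None of the 7 genes was called for any of the 6 differences between times. Such calls were rare throughout: 0.033% of genes for 8 h against 0 h, 0.0275% for 72 h against 0 h, 0.066% for 7 d against 0 h, 0.011% for 72 h against 8 h, 0.0715% for 7 d against 8 h and 0% for 7 d against 72 h.

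The clearest movement of Gpr17 was with time. In Ctrl mice it was higher than at 0 h by 0.49 at 8 h (SE 0.10, fold 1.41, adjusted p = 0.00329), by 0.80 at 72 h (SE 0.10, fold 1.74, adjusted p = 4.66e-06) and by 0.84 at 7 d (SE 0.10, fold 1.79, adjusted p = 7.46e-07). Every Ctrl mouse at 72 h and 7 d exceeded every Ctrl mouse at 0 h, as did 34 of 36 pairs at 8 h. Gpr17 stood at positions 21, 2 and 4 among genes in these comparisons, which share the 6 Ctrl mice of 0 h. Calls were few, with 0.456%, 0.445% and 0.264% of genes passing and 0.324%, 0.319% and 0.0934% passing upward.

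In CIE mice Gpr17 was not called at 8 h or 72 h, with differences from 0 h of −0.05 (adjusted p = 0.833) and 0.17 (adjusted p = 0.41), and rose at 7 d, by 0.61 (SE 0.10, fold 1.53, adjusted p = 0.00011). All 36 pairs of mice were higher at 7 d than at 0 h. These comparisons share the 6 CIE mice of 0 h. In CIE mice 2.95% of genes were called at 8 h, 1.38% at 72 h and 1.16% at 7 d, and 0.544% of all genes were called higher at 7 d. At 8 h, time since the last session cannot be told apart from the hour of the day at killing. The 72 h and 7 d harvests nominally fall whole days after 0 h, though the labels give no clock hour. At no harvest can time be told apart from anything else that differed between harvests. The order of Gpr17 group means (± SD) was Ctrl 0 h (8.28 ± 0.26), CIE 8 h (8.43 ± 0.13), CIE 0 h (8.48 ± 0.21), CIE 72 h (8.65 ± 0.11), Ctrl 8 h (8.78 ± 0.12), Ctrl 72 h (9.08 ± 0.19), CIE 7 d and Ctrl 7 d. The step to the next group exceeded the larger SD of the pair only from CIE 72 h to Ctrl 8 h and from Ctrl 8 h to Ctrl 72 h.

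The Ctrl rise of Gpr17 at 72 h and 7 d did not rest on 1 mouse. Leaving out each mouse in turn kept it between 0.75 and 0.88 at 72 h and between 0.79 and 0.92 at 7 d, and the values without Ctrl mouse 2 were 0.75 (adjusted p = 4.32e-05) and 0.79 (adjusted p = 7.88e-06). The rise at 8 h was less secure, since its call ended without Ctrl mouse 2, 4, 32 or 66 (0.44 and adjusted p = 0.0189 without mouse 2) and with the sets as a block (0.45, adjusted p = 0.0363). Thalamic markers had list medians of −0.03, −0.33 and −0.53 in these comparisons. The mean level of 8 such genes ranged over 7.31 to 7.76 at 8 h, 7.25 to 7.76 at 72 h and 6.69 to 7.51 at 7 d in Ctrl mice, against 7.26 to 8.61 in Ctrl mice at 0 h, with 0 of 8 called at each time. In CIE mice, Synpo2 of that list fell against 0 h at 72 h (−0.75, adjusted p = 0.00025) and at 7 d (−0.69, adjusted p = 0.000844), with list medians of 0.18 and −0.20. The thalamic level was 7.03 to 7.67 in CIE mice at 7 d and 7.22 to 7.76 in CIE mice at 0 h. The part of thalamic tissue in the Gpr17 rises of either treatment was not tested.

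**Figure D2:**
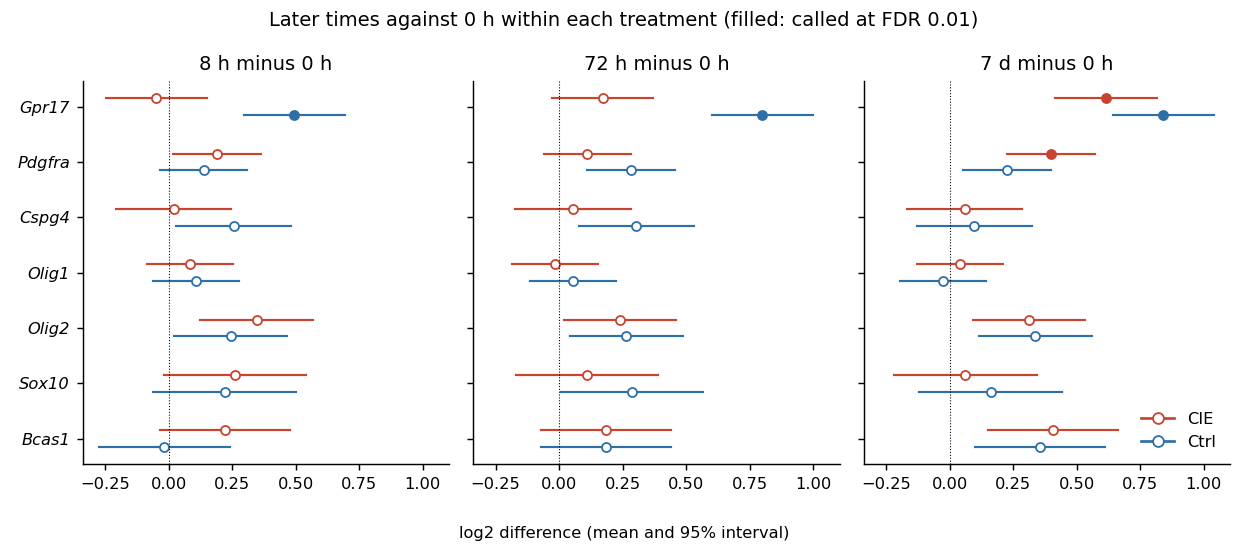
Log2 difference from 0 h (horizontal axis; points, with lines for 95% intervals) of each of the 7 genes (vertical axis) at 8 h, 72 h and 7 d, in CIE mice in red and in Ctrl mice in blue, with filled points for called differences. Gpr17 is called at all 3 times in Ctrl mice but only at 7 d in CIE mice, where it rose by 0.61, and Pdgfra is called in CIE mice at 7 d.

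Pdgfra, the mitogen receptor of dividing precursors, rose in CIE mice by 7 d. It ranged over 10.39 to 10.67 (median 10.40) in CIE mice at 7 d and over 9.97 to 10.43 (median 10.04) in CIE mice at 0 h. Of 36 pairs, 32 were higher at 7 d, and the exceptions all involved CIE mouse 43, whose value at 0 h was 10.43. The difference was 0.40 (SE 0.09, 95% interval 0.22 to 0.57, fold 1.32, adjusted p = 0.00506).

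In Ctrl mice Pdgfra differed from 0 h by 0.22 at 7 d (adjusted p = 0.243) and by 0.28 at 72 h (adjusted p = 0.0506; 0.105 without Ctrl mouse 2). At 7 d it was 10.49 ± 0.14 in CIE mice and 10.30 ± 0.16 in Ctrl mice (SD, n = 6 each), a difference of 0.19 (95% interval 0.02 to 0.36, adjusted p = 0.186). Fibroblast markers had a median difference of 0.66 in that comparison and pericyte markers 0.29, beside 0.03 over all genes, with 0 of 9 called in each list. The fibroblast level was 7.09 to 8.49 in CIE mice and 6.79 to 7.52 in Ctrl mice at 7 d, and its part was not tested. The change of the CIE effect on Pdgfra between 0 h and 7 d was 0.17 (SE 0.12, adjusted p = 0.74).

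The Pdgfra call was sensitive to how it was made. It ended with the sets as a block (adjusted p = 0.0158) and without any 1 of CIE mice 9, 11, 19, 45, 57, 67 and 72, with a highest adjusted p of 0.0242 without mouse 45. The remaining 2 probe sets of Pdgfra gave 0.08 (adjusted p = 0.842) and 0.21 (adjusted p = 0.287). They were much dimmer, with means of 5.27 and 5.25 beside 10.25 for the main probe set, so their values say little. Pdgfra is also carried by meningeal fibroblasts, and the mean level of 9 fibroblast markers ranged over 7.09 to 8.49 in CIE mice at 7 d and 7.22 to 8.18 in CIE mice at 0 h, with 0 of 9 called. The part of fibroblasts in the Pdgfra difference was not tested.

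Cspg4, the proteoglycan that gave NG2 cells their name, was called in no comparison. At 0 h it ranged over 6.98 to 7.60 in CIE mice (median 7.29) and 6.74 to 7.43 in Ctrl mice (median 7.02), a difference of 0.21 (95% interval −0.02 to 0.43, adjusted p = 0.32; 0.26 without Ctrl mouse 2, adjusted p = 0.228). The difference was between −0.04 and 0.17 at the later times. A second Cspg4 probe set was nearly as bright (mean 7.27 beside 7.28) but gave other values. In order of time, its CIE minus Ctrl differences were −0.01, −0.02, −0.19 and −0.10, none called (lowest adjusted p = 0.349). The positive differences of the main probe set, those of 0 h and 7 d, were thus not seen in the second. Pericytes also carry Cspg4, and 0 of 9 pericyte and smooth muscle markers were called in any comparison.

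The transcription factors Olig1, Olig2 and Sox10 were likewise called in none. Olig1 had the narrowest intervals. Its CIE minus Ctrl difference ran −0.08 (0 h), −0.11 (8 h), −0.16 (72 h, 95% interval −0.32 to 0.01, adjusted p = 0.587) and −0.01 (7 d). Without Ctrl mouse 2 the 0 h value of Olig1 was −0.01 (adjusted p = 0.966). Olig2 was within 0.09 of the Ctrl mean at each time. Its nearest approach to a call was in CIE mice at 8 h, which ranged over 7.90 to 8.28 (median 8.08) against 7.57 to 7.95 (median 7.76) in CIE mice at 0 h, a difference of 0.35 (SE 0.11, adjusted p = 0.0436) with 35 of 36 pairs higher. Sox10 varied most within a group, from 8.28 to 9.51 in Ctrl mice at 7 d beside 8.45 to 8.86 in CIE mice at 7 d, and its intervals, the widest of the 7, allowed for CIE effects between −0.43 and 0.35.

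Bcas1, of newly formed oligodendrocytes, had CIE minus Ctrl differences of −0.16 (0 h), 0.08 (8 h), −0.15 (72 h) and −0.10 (7 d), none called (adjusted p between 0.554 and 0.802). At 7 d it was higher than at 0 h by 0.41 in CIE mice (35 of 36 pairs, adjusted p = 0.103) and by 0.35 in Ctrl mice (30 of 36 pairs, adjusted p = 0.2). Neither difference passed the test. Bcas1 leaned on Ctrl mouse 2, without which its treatment difference at 0 h was −0.04 (adjusted p = 0.913) and its Ctrl difference at 7 d was 0.47 (adjusted p = 0.0537).

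**Figure D3:**
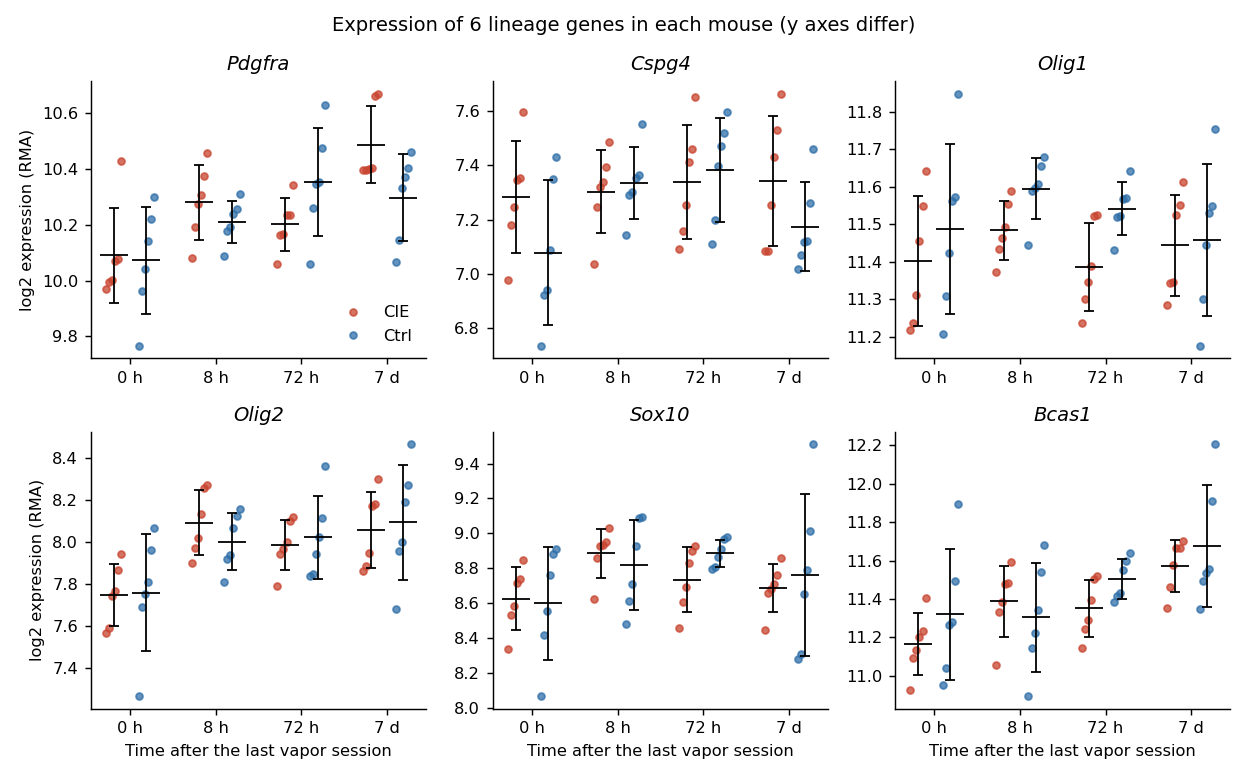
Log2 expression (vertical axes, each with its own range) of Pdgfra, Cspg4, Olig1, Olig2, Sox10 and Bcas1 in each mouse (points) by time after the last vapor session (horizontal axes), CIE in red and Ctrl in blue, with group means ± SD of 6 mice. CIE and Ctrl mice overlap for all 6 genes at every time, and Sox10 spreads from 8.28 to 9.51 in Ctrl mice at 7 d.

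Across the 7 genes, 0 were called between CIE and Ctrl mice at any of the 4 times, where, in order of time, 1.64%, 2.29%, 0.0055% and 1.03% of all genes were. All 7 differences were negative at 72 h, from −0.43 for Gpr17 to −0.04 for Olig2, with a median of −0.15 beside 0.01 over all genes. The sign at 72 h turned for Cspg4 without CIE mouse 61 (0.00) and for Olig2 without CIE mouse 29 (0.00) or Ctrl mouse 68 (0.03). Of the 28 differences over the 4 times, 11 took both signs when each mouse was left out in turn. At the remaining times signs were mixed, with 4 of 7 positive at 0 h (median 0.02, 0.04 over all genes), 4 at 8 h (0.07 beside 0.01) and 2 at 7 d (−0.02 beside 0.03). Against 0 h, the 7 genes had medians of 0.19, 0.11 and 0.31 in CIE mice and of 0.22, 0.28 and 0.22 in Ctrl mice at the 3 later times, where those over all genes were 0.00 to 0.05, and Gpr17 and Pdgfra were the genes called. The Ctrl medians were 0.25, 0.30 and 0.22 without Ctrl mouse 2. The genes were not independent of each other in these mice.

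**Figure D4:**
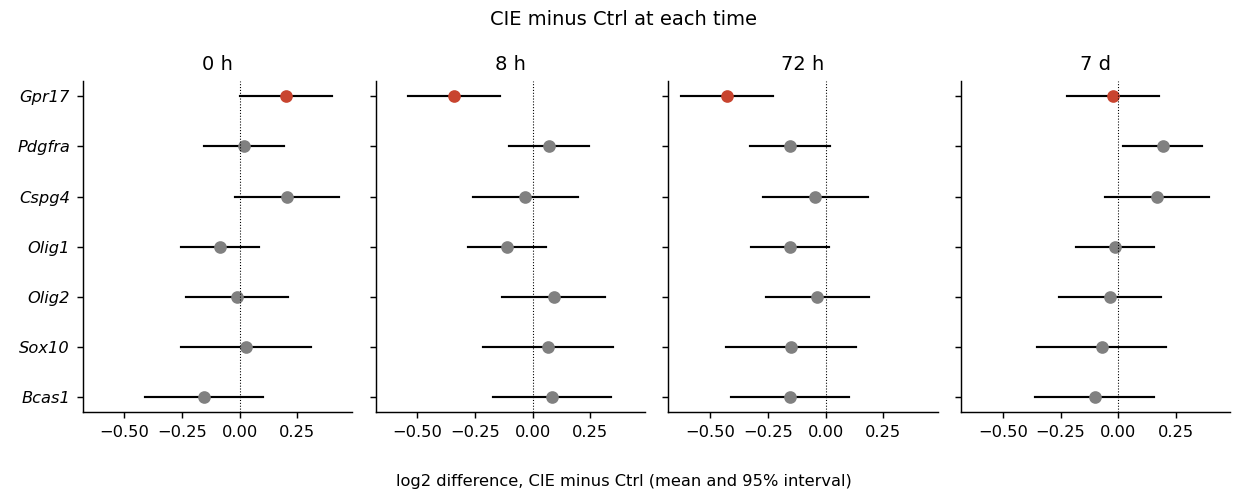
Log2 difference between CIE and Ctrl mice (horizontal axis, CIE minus Ctrl; points, with lines for 95% intervals) of the 7 genes (vertical axis), in 1 panel for each of the 4 times, with Gpr17 in red. Gpr17 lies at −0.34 at 8 h and −0.43 at 72 h, and all 7 points are left of 0 at 72 h with all 48 mice.

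From mouse to mouse within groups, most pairs of the 7 genes varied together. With group means removed, 15 of 21 pairs were correlated over 48 mice (permutation test with 100000 resamples, Benjamini-Hochberg adjusted p of 0.05 or less over the 21 pairs; the smallest p it can give is 1e-05). The share of correlated pairs over all genes was not counted. The closest pair was Sox10 and Bcas1 (r = 0.76, rho = 0.75, permutation p = 1e-05 each, adjusted 4.2e-05 for r and 7e-05 for rho). Next came Olig1 and Sox10 (r = 0.74, rho = 0.73, permutation p = 1e-05 each, adjusted 4.2e-05 and 7e-05) and Pdgfra and Olig2, the pair whose promoters are shown (r = 0.70, permutation p = 1e-05, adjusted 4.2e-05; rho = 0.62, permutation p = 2e-05, adjusted 8.4e-05). Without the 2 mice farthest from the median these r were 0.69, 0.73 and 0.64, and with the hybridization sets removed as well they were 0.80, 0.77 and 0.70.

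Gpr17 kept company with Pdgfra (r = 0.56, rho = 0.57, permutation p = 6e-05 and 3e-05, adjusted 0.000157 and 9e-05) and Cspg4 (r = 0.53, rho = 0.52, permutation p = 0.00012 and 0.00018, adjusted 0.00028 and 0.00042). Both held without the 2 farthest mice (0.54 and 0.43) and with sets removed (0.58 and 0.63). Gpr17 also went with Olig2 (r = 0.43, rho = 0.44, permutation p = 0.00273 and 0.00191, adjusted 0.00441 and 0.00334). That r was 0.42 without the 2 farthest mice and 0.44 with sets removed. With Bcas1 Gpr17 had r = 0.09 and rho = 0.17 (permutation p = 0.527 and 0.241, adjusted 0.583 and 0.267), and with Olig1 r = 0.12 and rho = 0.28 (permutation p = 0.426 and 0.0562, adjusted 0.497 and 0.0737). These r were 0.24 with Bcas1 and 0.26 with Olig1 without Ctrl mouse 2. Cspg4 had similarly low values with Sox10 (r = 0.06, rho = 0.10, permutation p = 0.672 and 0.506, adjusted 0.706 and 0.531) and Bcas1 (r = 0.06, rho = 0.05, permutation p = 0.707 and 0.717, adjusted 0.707 and 0.717).

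**Figure D5:**
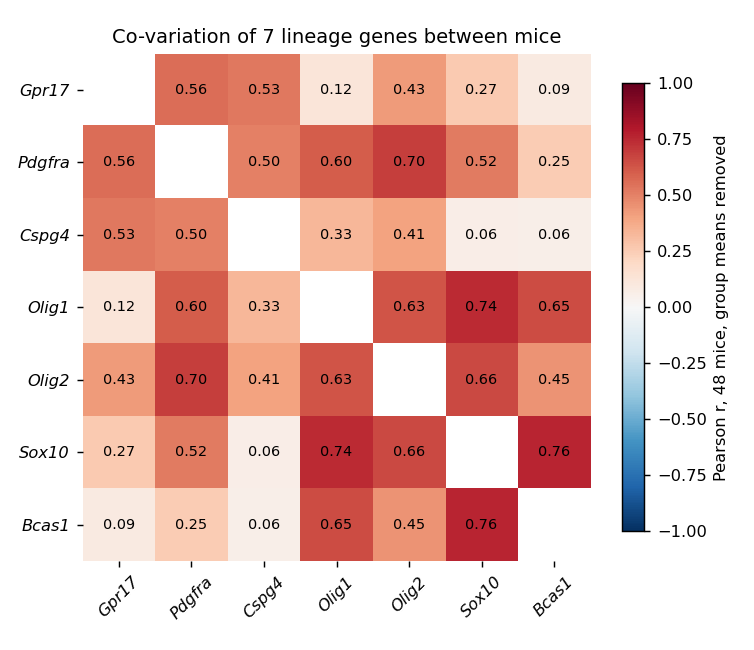
Pearson r between each pair of the 7 genes (rows and columns) over 48 mice with group means removed, on a colour scale from blue (−1) through white to red (1). Sox10, Bcas1 and Olig1 form 1 block (0.65 to 0.76), to which Olig2 has 0.66, 0.45 and 0.63 in that order. Gpr17 goes with Pdgfra (0.56), Cspg4 (0.53) and Olig2 (0.43), with 0.09 for Bcas1 (0.24 without Ctrl mouse 2).

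The gene most like each of the 7 over the same 48 values is given by Pearson r as a description, chosen as the highest over all genes. Bcas1 was matched most closely by Mag, a myelin adhesion protein (0.93), and Sox10 by Pde8a (0.95), a cyclic AMP phosphodiesterase. Gpr17 was matched by S100a6 (0.73) and Pdgfra by S100a16 (0.83), both small calcium-binding proteins. Cspg4 was matched by Tspan4 (0.88), a tetraspanin, Olig1 by Csrp1 (0.80) and Olig2 by Hip1r (0.79). The mean of the 7 standardised genes was followed most closely by Utrn, the dystrophin homologue utrophin (0.90), Tmem63a (0.89), Tmbim1 (0.87), Tmem98 (0.86) and Plekhh1 (0.86). Both values of each pair come from the same array.

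Among further precursor genes a pair rose in Ctrl mice at times when Gpr17 did. Of 14 measured from a list of 16, Susd5 and Vcan, the proteoglycan versican, rose in Ctrl mice at 72 h and 7 d relative to 0 h, and 0 fell, with list medians of 0.15 and 0.16 beside 0.05 and 0.01 over all genes, of which 0.445% and 0.264% were called. Susd5 ranged over 7.70 to 7.86 at 72 h and 7.64 to 7.91 at 7 d in Ctrl mice, against 7.11 to 7.64 in Ctrl mice at 0 h. Its rises of 0.35 (SE 0.06, adjusted p = 0.00188) and 0.36 (SE 0.06, adjusted p = 0.0014) stayed called whichever mouse was left out, but not in its other probe set, and the 7 d call ended with array weights (adjusted p = 0.0362). Between treatments Susd5 at 72 h was 7.48 ± 0.09 in CIE mice and 7.76 ± 0.07 in Ctrl mice (SD, n = 6 each), a difference of −0.28 (SE 0.06, adjusted p = 0.0549), not called.

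The rises of Vcan, 0.35 at 72 h (adjusted p = 0.00921) and 0.44 at 7 d (adjusted p = 0.00157), were called in 0 of its 7 further probe sets and ended with the sets as a block (adjusted p = 0.0724 and 0.0172). At 72 h the Vcan call also ended without any 1 of Ctrl mice 2, 6, 16, 20, 44, 52, 56 and 68 (highest adjusted p = 0.0465), and at 7 d without Ctrl mouse 22. Matn4, a matrilin of the extracellular matrix, was the precursor gene of this list called between treatments at a single time, 8 h (2.29% of all genes). It then ranged over 6.32 to 6.65 in CIE mice and 5.93 to 6.41 in Ctrl mice. It was higher by 0.39 (SE 0.08, adjusted p = 0.00232), opposite in sign to the Gpr17 difference at that time. Averaged over the 4 times, 2 of 14 were higher in CIE mice beside 7.9% of all genes called, Vcan (0.15, adjusted p = 0.00583) and Matn4 (0.15, adjusted p = 0.00759). Both calls ended with the sets as a block (adjusted p = 0.0149 and 0.0216). The Vcan call also ended without any 1 of 6 mice (Ctrl mice 2, 24, 54 and 80, CIE mice 21 and 61; highest adjusted p = 0.0104) and that of Matn4 without any 1 of 25 of the 48 mice (highest 0.0137).

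Among 13 committed and premyelinating genes, Bmp4, a secreted growth factor made by committed precursors, was higher in CIE mice at 0 h. It was 6.27 ± 0.21 in CIE and 5.73 ± 0.21 in Ctrl mice (SD, n = 6 each), a difference of 0.54 (SE 0.12, adjusted p = 0.00467; 1.64% of genes called). The call ended with the sets as a block (0.60, adjusted p = 0.0118), with array weights (adjusted p = 0.029) and without Ctrl mouse 20 or 56 or CIE mouse 11, 19, 43 or 72 (highest adjusted p = 0.0139). At 72 h Bmp4 averaged 5.66 ± 0.25 in CIE mice, against 6.02 ± 0.12 in Ctrl mice, a difference of −0.36 (adjusted p = 0.275). Within CIE mice it fell by 0.61 against 0 h (SE 0.12, adjusted p = 0.00181; 0.0101 without CIE mouse 71). The change of its CIE effect between 0 h and 72 h was −0.90 (SE 0.17, adjusted p = 0.0102), not called. Itpr2, an intracellular calcium channel, was higher in CIE mice at 7 d by 0.42 (SE 0.08, adjusted p = 0.00317; 1.03% of genes called), a call that ended without Ctrl mouse 18 or 22 or CIE mouse 9 or 45 (highest adjusted p = 0.0165). Averaged over the 4 times Bmp4, Itpr2 and Ust, a sulfotransferase, were higher in CIE mice and 0 were lower, 3 of 13 beside 7.9% of all genes.

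Myelin and mature oligodendrocyte genes gave few calls, with 16 measured. The connexin gene Gjc3 was lower in CIE mice averaged over the 4 times (−0.93, SE 0.13, adjusted p = 2.34e-06), 1 of 16 beside 7.9% of all genes. Bcas1, which tracked Mag, was not called (−0.08, adjusted p = 0.422). At 0 h Gjc3 was also lower in CIE mice (−1.32, SE 0.27, adjusted p = 0.00215; 1.64% of genes called). That call ended with the sets as a block (adjusted p = 0.0221) and without Ctrl mouse 2 or CIE mouse 57 (highest adjusted p = 0.011). Ermn and Cryab, 2 of 16, rose in CIE mice at 8 h relative to 0 h, where 2.95% of all genes were called. The mean level of the 16 genes then ranged over 9.93 to 10.43 in CIE mice at 8 h and 9.88 to 10.11 in CIE mice at 0 h, and the list median was 0.22 beside 0.02 over all genes.

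Of 23 ligands and signals that act on precursors, the one with the smallest p of the F test was Hes5, a target of Notch that holds precursors undifferentiated. Hes5 ranged over 6.47 to 6.85 in CIE mice and 7.05 to 8.08 in Ctrl mice at 0 h, and over 6.07 to 6.61 in CIE mice and 7.36 to 8.17 in Ctrl mice at 8 h, with no overlap at either time. The differences were −0.90 (SE 0.16, adjusted p = 0.000695) and −1.28 (SE 0.16, adjusted p = 1.32e-06), called whichever mouse was left out, with the sets as a block and in the second Hes5 probe set. At these times 1.64% and 2.29% of all genes were called. The main probe set of Hes5 is of the _x_at type, whose probes can match related transcripts. At 7 d Hes5 averaged 8.07 ± 0.33 in CIE mice, against 8.13 ± 0.32 in Ctrl mice. The CIE effect at 7 d exceeded that at 8 h by 1.22 (SE 0.23, adjusted p = 0.00637; 0.0282 with the sets as a block, and not called without any 1 of 14 of the 24 mice, with a highest adjusted p of 0.0195).

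Like Gpr17, Hes5 in CIE mice was higher at 7 d than at 0 h, by 1.39 (SE 0.16, adjusted p = 1.67e-07), but it was so already at 72 h, by 1.07 (SE 0.16, adjusted p = 4.79e-05). Igf1, a survival factor for the lineage, was higher in CIE mice at 7 d by 0.54 (SE 0.13, adjusted p = 0.00964), 1 of 23 where 1.03% of all genes were called. That call ended with the sets as a block (adjusted p = 0.0215), with array weights (0.40, adjusted p = 0.0302) and without any 1 of 9 of the 12 mice (highest adjusted p = 0.0528). Of the 3 other Igf1 probe sets, 0 were called. Of 11 proliferation genes, Mcm5, a subunit of the replicative helicase, was lower in CIE mice at 0 h by −0.38 (SE 0.09, adjusted p = 0.00927), where 1.64% of all genes were called. The adjusted p was 0.0597 with the sets as a block, and up to 0.0417 without any 1 of 10 of the 12 mice. In CIE mice Mcm5 was higher at 72 h than at 0 h by 0.64 (SE 0.09, adjusted p = 1.69e-05), where 1.38% were called. Its main probe set is also of the _x_at type. Mki67 and Pcna were not called (adjusted p of the F test 0.271 and 0.339).

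Markers of other cell types were read beside these values. Among 9 microglial genes Ctss was higher in CIE mice at 0 h and 8 h and Tmem119 at 7 d, with list medians of 0.19, 0.22 and 0.25. At these times 1.64%, 2.29% and 1.03% of all genes were called. At 8 h the astrocyte gene Slc1a2 was also higher in CIE mice (0.20, adjusted p = 0.00545). At 72 h, when Gpr17 was lowest relative to Ctrl mice and 0.0055% of genes were called, 0 of 9 microglial, 0 of 10 astrocyte, 0 of 10 neuronal and 0 of 7 endothelial markers were called, so that these counts say little. The list medians at 72 h were −0.16 for microglia, −0.03 for astrocytes, 0.02 for neurons, −0.10 for endothelium, −0.10 for fibroblasts and 0.17 for thalamus. Microglial levels ranged over 9.30 to 9.57 in CIE mice and 9.45 to 9.75 in Ctrl mice at 72 h, and their part in the Gpr17 difference was not tested. At 7 d, when Itpr2 and Igf1 were higher in CIE mice, list medians were 0.66 for fibroblasts, 0.29 for pericytes, 0.25 for microglia, 0.23 for thalamus, 0.21 for endothelium and 0.19 for astrocytes, beside 0.03 over all genes. The choroid plexus gene Kl was higher at 7 d as well (1.05, adjusted p = 0.00385), and the part of these cells in the Itpr2 and Igf1 differences was not tested.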

How the data were processed

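Hippocampal RNA from 48 mice was hybridised to 48 arrays. The deposited values are log2 expression from robust multi-array average (RMA). Per the study's methods, the authors quantile normalized arrays within each hybridization group, then together, and removed the group with ComBat. The tool versions were not given in the sources used here. ComBat can narrow the spread within groups.

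Of 45037 probe sets, 34945 had a single gene symbol, covering 18193 genes. The 7 genes had 14 probe sets, and the 1 with the highest mean stood for each. All 48 arrays entered 1 limma fit (version 3.58.1 in R version 4.3.3) of 8 group means, with lmFit and eBayes and two-sided tests. P-values were adjusted over all probe sets (Benjamini-Hochberg), and 0.01 or less was called. Percentages of genes called count 1 probe set per gene. Hybridization sets were inferred by linking arrays with 5 or more identical values (tolerance 1e-08). Fits with the sets as a block used the 47 arrays in a set, without Ctrl mouse 2, so they combine both changes.

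Genes, lists and the set block were chosen with earlier results of these data known. Named were the 7 genes, up to 3 genes per list with the smallest F test p, further called genes of a list by name only, and genes most correlated with the 7. The main alternatives were the set block, array weights, eBayes options, median centring, brighter probe sets only, other probe sets, an FDR of 0.05 and leaving out each mouse. The code of the fits was tried on simulated data with independent noise. That trial held no array sets or mixed tissue, so it does not bear on the results above. The number of arrays limits the precision.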

Additional observations from a re-analysis of the deposited data

Results flagged for a closer look

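Each of the 56 combinations of gene and group was examined for a mouse far from the rest of its 6, and 1 was found. Pdgfra in CIE mice at 0 h had CIE mouse 43 at 10.43 with the next mouse at 10.08, a gap of 0.76 of the group's range. Chance marks about 1 in 20 groups in this way. Without mouse 43 the Pdgfra difference between CIE mice at 7 d and 0 h was 0.46 (adjusted p = 0.000737).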

How the results depend on the processing

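No paired analysis was possible because no groups share replicate numbers, so arrays were blocked only by the hybridization sets inferred from their values. Of 506 values of 49 results for the 7 genes under alternatives, 492 kept their side of the threshold (31 of them, of differences not called, with the other sign), 8 lost and 6 gained a call, and 0 called results changed sign. Other probe sets and leaving out mice apart, 9 of 329 values of differences not called had the other sign. Leaving out each mouse gave both signs for 11 of the 28 treatment differences. The members called between CIE mice at later times and 0 h were 2, and 1 with the array set as a block or with the mean of all probe sets of a gene (Pdgfra, 0.23, adjusted p = 0.0491). That mean takes in the much dimmer further probe sets of Pdgfra. With array weights, 1 member was called at 8 h and 1 at 72 h, Gpr17 both times, in place of 0, and Gpr17 in Ctrl mice at 8 h lost its call (0.46, adjusted p = 0.0325). At an FDR of 0.05, 1 was called at 8 h, 1 for the mean CIE effect and 1 for its difference between times, each in place of 0 and each Gpr17. Leaving out each mouse gave 0 to 1 calls for the difference between times and 1 to 2 for CIE mice at later times. It gave 2 to 3 for Ctrl mice at later times, 1 for the F test, and 0 for the 4 treatment comparisons and their mean. Correlated pairs numbered 15, with 14 to 16 under alternatives. Of 29 calls of named list genes, 19 held with the set block, 23 with array weights and 16 without any 1 mouse, alternatives chosen after seeing the data. The causes were not tested.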
